A study of Mus musculus with 6 samples.

Results

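The MHC class II presentation genes described here are 7 genes taken by symbol from the 21899 genes of a mouse liver RNA-seq table: H2-Aa, H2-Ab1, H2-Eb1, H2-DMa, H2-DMb1, Cd74 and Ciita. The list is defined by gene symbol and shared role, and was chosen with earlier results of these data known. All 7 passed the filter on low counts. The series holds 6 polyA RNA libraries from livers of wild-type C57BL6J mice kept for 6 weeks on 1 of 2 diets, with 3 libraries per diet. The control diet was sufficient in methionine and choline (MCS), and the other lacked both nutrients (MCD), a standard way of producing fatty liver with inflammation in mice. The labels used here give neither the sex nor the age of the mice, and do not say that each library came from its own animal, so a p-value here speaks to the spread among libraries, which may be technical. Libraries are called MCS 1 to MCS 3 and MCD 1 to MCD 3 after their labelled replicate numbers. No transgene or drug treatment is named for either diet.

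MHC class II molecules are cell-surface pairs of an alpha and a beta chain that display peptides from endosomes to CD4 T cells. Newly made pairs are held by the invariant chain, encoded by Cd74, until endosomal proteases trim it and the H2-DM pair exchanges its last fragment for a peptide. Transcription of these genes is governed by CIITA, a coactivator that binds no DNA itself and docks on factors of the RFX, NF-Y and CREB families at a shared promoter module. In liver the genes are best known from dendritic cells, B cells and macrophages, Kupffer cells among them. C57BL/6 mice carry a defective H2-Ea gene, so H2-Eb1, the beta chain of I-E, has no alpha partner in this strain and I-A, made from H2-Aa and H2-Ab1, is their class II pair.

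The shared promoter module is shown first because it is the sequence that class II genes are known to share. The core of the X box, where RFX binds, was searched as GNAAC. It had to be followed after 23 to 27 bases by TGATTGG, the Y box, an inverted CCAAT bound by NF-Y. For the class II genes only the gene's own strand before the gene start was read. The letters and the gap were chosen after reading these windows. RefSeq promoter windows on GRCm38.p6, each from 250 bases before to 50 bases after a gene start, were read for 4 of the 7 members. The module was found for 3 of them. Read on either strand and anywhere in the window, a wider search, 45 of all 32851 windows (0.137%) held it, whereas the Y box alone was in 7.82%. Both elements are in capitals, 5′ to 3′ on the gene's strand, and each X core begins 76 to 132 bases before the gene start.
H2-Aa: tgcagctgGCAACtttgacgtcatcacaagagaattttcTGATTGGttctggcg
H2-Eb1: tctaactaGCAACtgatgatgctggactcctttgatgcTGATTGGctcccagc
H2-DMb1: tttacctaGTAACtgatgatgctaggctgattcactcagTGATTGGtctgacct
H2-Oa: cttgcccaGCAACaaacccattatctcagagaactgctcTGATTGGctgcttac
H2-Ob: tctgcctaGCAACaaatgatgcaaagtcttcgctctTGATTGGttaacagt
H2-Eb2: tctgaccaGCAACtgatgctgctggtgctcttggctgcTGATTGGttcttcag

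On GRCm38.p6 these stretches are chr17:34287859-34287912 (H2-Aa, minus strand), chr17:34305768-34305820 (H2-Eb1, plus strand) and chr17:34153089-34153142 (H2-DMb1, plus strand). The other 3 are class II genes outside the 7, all on the plus strand, at chr17:34092295-34092348 (H2-Oa), chr17:34238810-34238860 (H2-Ob) and chr17:34325535-34325587 (H2-Eb2). Between X core and Y box lay 26 bases in H2-Aa, H2-DMb1 and H2-Oa, 25 in H2-Eb1 and H2-Eb2, and 23 in H2-Ob. The windows of H2-DMa and of H2-DMb2 did not contain these letters on the gene's strand before the gene start. H2-Ab1 and Ciita had no entry among the windows. Windows on the chromosome of Cd74 were left out when the class II genes were read, so Cd74 was not searched. A match describes letters in a window and is not a measured binding site. Along the chromosome the protein-coding order is H2-Oa, Brd2, H2-DMa, H2-DMb2, H2-DMb1, Psmb9, Tap1, Psmb8, Tap2, H2-Ob, H2-Ab1, H2-Aa, H2-Eb1 and H2-Eb2, so 5 of the members sit in 1 cluster, while Cd74 and Ciita lie on other chromosomes.

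Library totals ran from 16615469 to 21322771 counts, for which 3 counts, the floor used here, equal 0.104 to 0.227 CPM (read counts scaled to a common library size). CPM are on edgeR's TMM scale, which corrects each library total for composition, and fold changes are on that scale unless said otherwise. The TMM factors were 0.797 to 0.873 on MCS and 1.04 to 1.41 on MCD. With them the median log2 fold change over the 12599 genes tested was 0.015, and with library totals alone it was 0.57. TPM values, the authors' length-scaled unit, carry no such correction, so folds read from TPM are larger than those read from CPM. The members' median exceeded that of all genes by 1.62 with TMM and by 1.66 with library totals alone (log2). The 7 hepatocyte markers tested summed to 81015 to 106590 CPM on MCS and 56548 to 93366 CPM on MCD, with a median log2 value of -0.66.

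All 7 members rose on MCD by edgeR's quasi-likelihood test with Benjamini-Hochberg adjustment at 0.05, with log2 fold changes from 1.21 for H2-DMb1 to 2.17 for Ciita and a median of 1.64. Of all genes tested, 14.8% rose and 9.97% fell. The members were chosen with earlier results of these data known, so these shares are a background and not an independent comparison. In all 7 members every MCD library lay above every MCS library, which held for 23.9% of all genes. The lowest MCD library exceeded the highest MCS library by 1.07-fold for H2-DMa up to 2.22-fold for Ciita. In TPM the members together summed to 208, 182 and 395 in MCS 1, 2 and 3, and to 1251, 703 and 2224 in MCD 1, 2 and 3. That is 0.0182% to 0.0395% of all TPM on MCS and 0.0703% to 0.222% on MCD. In bulk tissue, a change in the number of cells that express a gene and a change in its RNA per cell cannot be told apart.

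**Figure D1:**
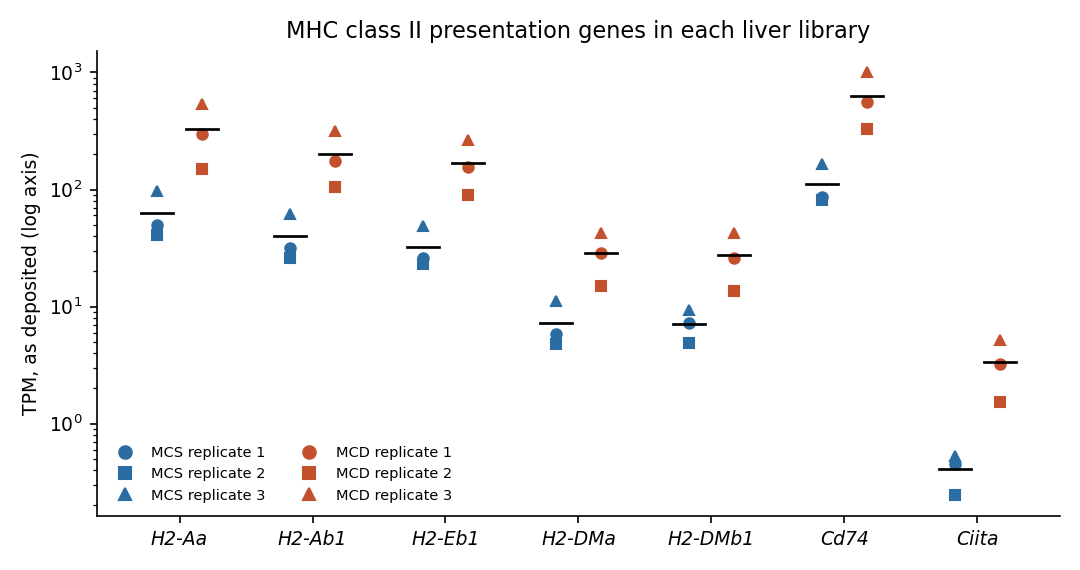
TPM of each member (log axis) in each of the 6 libraries, with a bar at the mean of each diet. For all 7 genes the 3 MCD points lie above the 3 MCS points, and among the MCD points replicate 3 is highest and replicate 2 lowest.

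The I-A alpha chain gene H2-Aa (ENSMUSG00000036594) stood at 50.2, 40.9 and 97.6 TPM in MCS 1, 2 and 3, and at 299, 149 and 540 TPM in MCD 1, 2 and 3. The groups did not overlap, and replicate 3 was the highest library on both diets. H2-Aa rose 3.14-fold, from 51.1 ± 22.1 to 161 ± 71.5 CPM (SD, n = 3 each), with a log2 fold change of 1.65 ± 0.40 (SE) and an edgeR adjusted p of 0.0242. Its partner H2-Ab1 (ENSMUSG00000073421), the I-A beta chain, was at 32.0, 25.8 and 62.4 TPM on MCS and at 176, 105 and 318 TPM on MCD. The order of the libraries was that of H2-Aa, again with no overlap. H2-Ab1 rose 3.01-fold, from 34.9 ± 15.3 to 105 ± 39.5 CPM (SD, n = 3 each; log2 1.59 ± 0.36, edgeR adjusted p = 0.0194). The calls of both chains ended when MCS 1, MCS 2, MCD 1 or MCD 3 was left out. Without each of them the edgeR adjusted p was 0.0687 to 0.0895 for H2-Aa and 0.0534 to 0.0710 for H2-Ab1.

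H2-Eb1 (ENSMUSG00000060586), the I-E beta chain that lacks a partner in this strain, followed the library order of the I-A chains. Its levels were 26.2, 23.1 and 48.4 TPM in MCS 1, 2 and 3 and 156, 89.2 and 264 TPM in MCD 1, 2 and 3. No MCD library fell into the MCS range. H2-Eb1 rose 3.11-fold (log2 1.64 ± 0.33, edgeR adjusted p = 0.0126), and its call held with any 1 library left out, at log2 values of 1.33 to 1.98. The sum of H2-Aa, H2-Ab1 and H2-Eb1, fitted as 1 feature, changed by 1.63 ± 0.37 (log2, edgeR adjusted p = 0.0156). That call ended without MCS 1 or MCS 2, at an adjusted p of 0.0646 to 0.0674.

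The proportions of the 3 chains overlapped between diets. The H2-Ab1/H2-Aa ratio within a library, in TPM, was 0.630 to 0.639 on MCS and 0.588 to 0.709 on MCD. The H2-Eb1/H2-Aa ratio was 0.496 to 0.565 on MCS and 0.488 to 0.600 on MCD. For both ratios the MCD range enclosed the MCS range, the log2 differences of -0.020 and 0.021 were smaller than the spread between libraries (pooled SD 0.11 and 0.13), and the exact permutation p was 1. Among 9 ratios compared, 3 libraries against 3 cannot give an exact two-sided p below 0.1, and the lowest value adjusted over the 9 was 0.225.

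Cd74 (ENSMUSG00000024610), the invariant chain that blocks the peptide groove and steers new class II pairs to endosomes, had the highest TPM of the members in every library. It stood at 86.3, 81.9 and 166 TPM in MCS 1, 2 and 3 and at 563, 330 and 1012 TPM in MCD 1, 2 and 3. The lowest MCD library was 1.57 times the highest MCS library in CPM. Cd74 rose 3.43-fold, from 102 ± 38.0 to 351 ± 135 CPM (SD, n = 3 each), with a log2 fold change of 1.78 ± 0.34 and an edgeR adjusted p of 0.00822. The call held with any 1 library left out, at log2 values of 1.45 to 2.12. Cd74 made up 42.8% ± 1.98 of the members' summed TPM on MCS and 45.8% ± 0.978 on MCD (SD, n = 3 each). The Cd74/H2-Aa ratio was 1.70 to 2.003 on MCS and 1.87 to 2.22 on MCD. These ranges overlapped, with an exact two-sided permutation p of 0.3 (0.54 adjusted over the 9 ratios).

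The genes of the peptide exchange pair H2-DM stood below the displaying chains in every library (TPM) and had the smallest fold changes of the 7. H2-DMa (ENSMUSG00000037649), its alpha chain, was at 5.79, 4.76 and 11.2 TPM in MCS 1, 2 and 3 and at 28.6, 14.9 and 42.8 TPM in MCD 1, 2 and 3. In CPM its MCD 2, at 9.32, was close to MCS 3, at 8.72. H2-DMa rose 2.43-fold (log2 1.28 ± 0.34, edgeR adjusted p = 0.0273). H2-DMb1 (ENSMUSG00000079547), a beta chain, was at 7.19, 4.89 and 9.35 TPM on MCS and at 26.2, 13.5 and 42.8 TPM on MCD. Here too MCD 2 was the lowest of its diet and lay just above the MCS range. H2-DMb1 rose 2.31-fold (log2 1.21 ± 0.31, edgeR adjusted p = 0.0239), and limma-voom gave 1.15 with an adjusted p of 0.0576. Leaving out MCS 1, MCS 2 or MCD 1 ended both calls, and MCD 3 ended that of H2-DMa too. The adjusted p was then 0.0698 to 0.104 for H2-DMa and 0.0698 to 0.0887 for H2-DMb1 (edgeR).

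H2-DMb2 encodes a second H2-DM beta chain similar to H2-DMb1, and short reads from the pair may be split between them. Its counts were 7, 2 and 29 on MCS and 32, 18 and 68 on MCD, with a log2 fold change of 1.06 ± 0.75 and an edgeR adjusted p of 0.327. Summed with H2-DMb1 it gave 1.20 ± 0.34 (adjusted p = 0.0336), a call that ended without MCS 1, MCS 2, MCD 1 or MCD 3 (0.0800 to 0.108) and under limma-voom (1.15, 0.0647). The ratio of H2-DMa plus H2-DMb1 to H2-Aa plus H2-Ab1, in TPM, was 0.129 to 0.158 on MCS and 0.0997 to 0.115 on MCD. The ranges did not overlap and the log2 difference was -0.40, with an exact two-sided permutation p of 0.1, the smallest this design allows (0.225 adjusted over the 9 ratios). Their own ratio, H2-DMb1/H2-DMa, was 0.833 to 1.24 on MCS and 0.904 to 0.9997 on MCD, which overlapped (exact p = 0.6).

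Ciita (ENSMUSG00000022504), the coactivator, was the scarcest member and had the largest point estimate. It had 35, 15 and 36 counts in MCS 1, 2 and 3 and 180, 99 and 309 in MCD 1, 2 and 3, or 0.452, 0.248 and 0.525 TPM against 3.26, 1.53 and 5.22 TPM. The groups stood well apart, and Ciita was the only member in which MCS 1 was the highest of its diet in CPM, at 2.01 against 1.99 for replicate 3. Ciita rose 4.50-fold, from 1.71 ± 0.5004 to 7.78 ± 3.15 CPM (SD, n = 3 each; log2 2.17 ± 0.39, edgeR adjusted p = 0.00618). The call held with any 1 library left out, at log2 values of 1.86 to 2.41. The Ciita/H2-Aa ratio was 0.00538 to 0.00900 on MCS and 0.00967 to 0.0109 on MCD in TPM. The ranges did not overlap, at a log2 difference of 0.63 and an exact two-sided permutation p of 0.1 (0.225 adjusted over the 9 ratios).

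**Figure D2:**
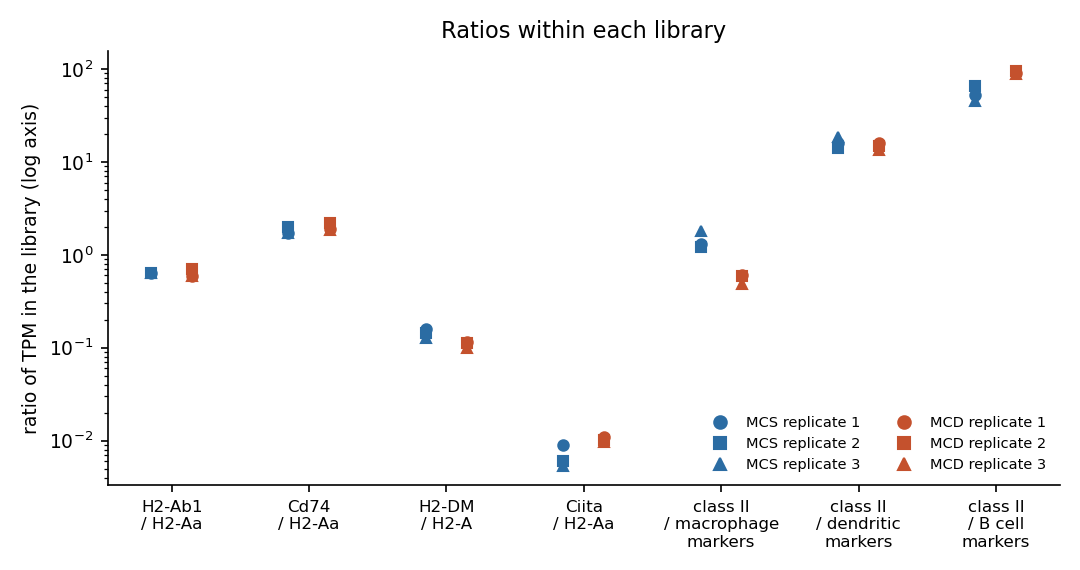
Ratios of TPM within each library (log axis) for 7 of the 9 ratios, by diet. H2-Ab1/H2-Aa, Cd74/H2-Aa and the ratio of class II and Cd74 to dendritic cell markers overlap between diets, and the other 4 (H2-DM to I-A, labelled H2-A, Ciita to H2-Aa, and class II and Cd74 to macrophage and to B cell markers) do not.

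Libraries of 1 diet differed widely. The highest library was 1.75 to 2.21 times the lowest among the members on MCS and 1.98 to 2.55 times on MCD, in CPM. Replicate 3 was highest for 6 of the 7 members on MCS and for all 7 on MCD, and replicate 2 was lowest for all 7 on both. Among the monocyte and macrophage markers MCD 3 was highest of its diet for 15 of 15, and MCS 3 for 7 of 15. Sinusoidal endothelial markers were highest in replicate 3 of both diets for 10 of 10 genes, with sums of 124 to 500 CPM on MCS and 79.8 to 441 CPM on MCD. When both replicates 3 were left out, all 7 members were still called higher on MCD (median log2 value 1.68). The number of members called was 3 to 7 with 1 library left out: 3 without MCS 1, MCS 2 or MCD 1, 4 without MCD 3, and 7 without MCS 3 or MCD 2. H2-Eb1, Cd74 and Ciita were called in all 6 of these fits. With MCS 1 and 2 both left out, so that MCS 3 stood alone and was assumed to vary like the MCD libraries, edgeR called 0 members, and 3 had an unadjusted p under 0.05.

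The authors' deposited table of the same diet comparison gives log2 fold changes of 1.94 (H2-DMb1) to 3.03 (Ciita) for the members, with false discovery rates of 5.55e-09 (Cd74) to 0.00540 (H2-Aa). The H2-Aa value there is 2.39 and that of Cd74 is 2.51. For all 7 members the deposited value equals the log2 ratio of the mean TPM of the diets, so it differs from the values fitted here in unit and scaling.

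**Figure D3:**
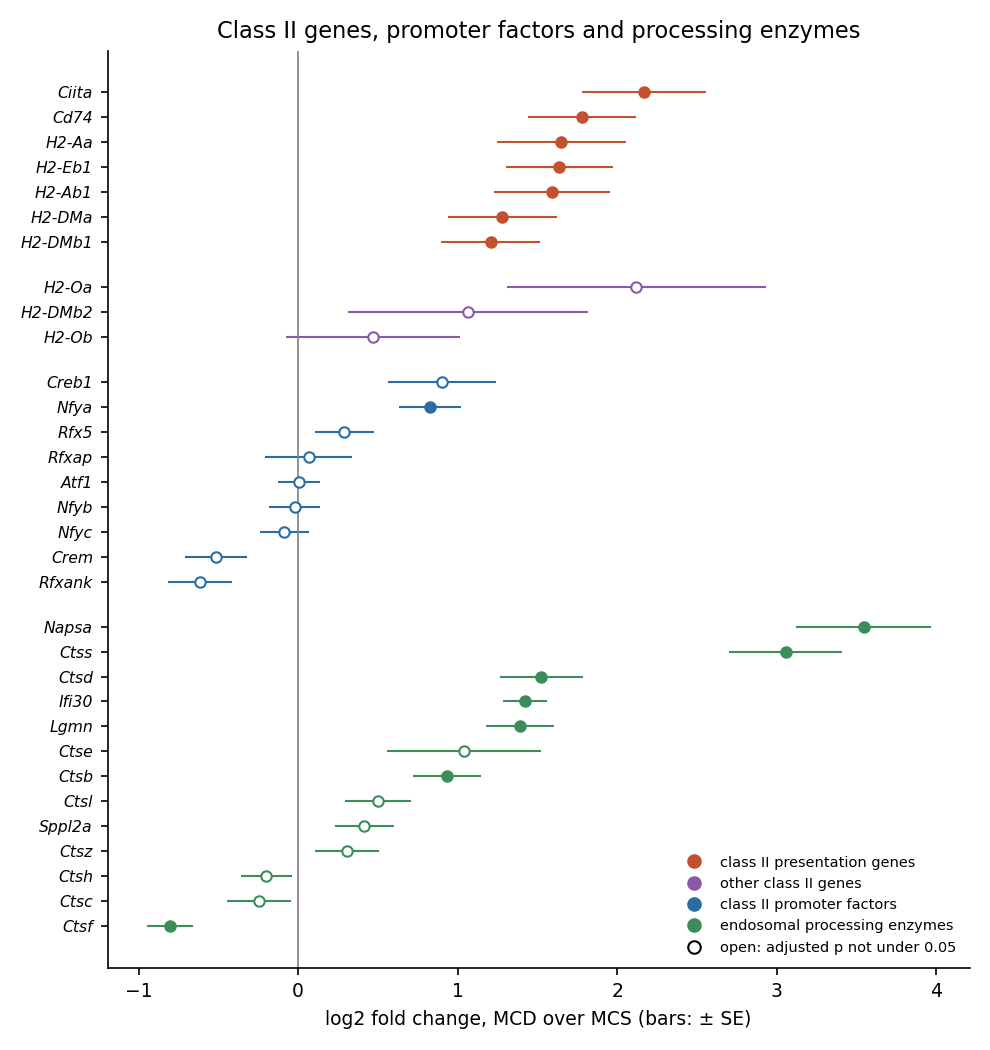
Log2 fold change (MCD over MCS) with SE of the members, other class II genes, promoter factors and endosomal enzymes. Filled points passed edgeR's adjusted threshold and open points did not: all 7 members are filled, against 1 of 9 promoter factors and 7 of 13 endosomal enzymes.

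Other class II genes were rare. H2-Oa and H2-Ob encode H2-O, the pair that inhibits H2-DM and is best known from B cells. H2-Oa had 4, 7 and 1 counts on MCS and 20, 11 and 57 on MCD, with a log2 fold change of 2.12 ± 0.81 and an edgeR adjusted p of 0.0870, which became 0.0354 without MCD 2 and 0.0388 with library totals alone. H2-Ob had 15, 9 and 16 counts on MCS and 24, 11 and 51 on MCD, and its log2 fold change of 0.47 ± 0.55 (adjusted p = 0.561) changed sign without MCD 3. H2-Eb2, a rarely transcribed second I-E beta gene, had 0, 1 and 2 counts on MCS and 23, 8 and 40 on MCD. It did not pass the filter on low counts and was not tested in the main fit. With no count filter, edgeR called 1 gene of this list higher on MCD, H2-Eb2. Of the 3 genes of this list tested in the main fit, with H2-DMb2, edgeR, DESeq2 and limma-voom called 0, and 1 had an unadjusted edgeR p under 0.05. H2-Ea was not analysed here.

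The DNA-binding factors on which CIITA docks gave few calls with TMM. Of 9 tested, 1 rose and 0 fell by edgeR, with 2 of them lower at an unadjusted p under 0.05 and 1 lower by DESeq2. With library totals alone 5 of the 9 were called higher, and on log2(TPM + 1) and log2(TPM + 0.1) 2 and 4 were. Of all 12599 genes tested, 5095, 5401 and 5692 were called higher under these scalings, in that order. The median log2 fold change was 0.0056, and their summed level was 104 to 115 CPM on MCS and 112 to 116 CPM on MCD. Nfya, a subunit of NF-Y, rose by 0.82 ± 0.19 on the log2 scale (edgeR adjusted p = 0.0175), a call that ended without MCS 1, MCS 2 or MCD 1 (0.05003 to 0.0763). The other NF-Y subunits had log2 values of -0.021 (Nfyb) and -0.086 (Nfyc), values that turn positive with library totals alone (0.51 and 0.46). Of the RFX complex, Rfx5 had 0.29 (adjusted p = 0.277), Rfxap 0.066 (0.881) and Rfxank -0.62 ± 0.20 (0.0528). Rfxank is at the threshold: its adjusted p was 0.0326 by DESeq2 and 0.0200 by edgeR without MCD 2, while its value on the log2(TPM + 1) scale was 0.042. Creb1 had 0.90 ± 0.34 (0.0835) and passed without MCD 2 (0.0185). Crem had -0.52 (0.0825) and Atf1 0.0056 (0.981), and both directions depend on the scaling.

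Genes of the interferon-gamma axis, the classical inducer of Ciita, and other regulators of Ciita were tested for 11 of 14 listed genes. Of these 5 rose and 0 fell by edgeR (also 0 by DESeq2, by limma-voom and at an unadjusted p under 0.05), and the median log2 value was 0.89. The receptor chains rose, Ifngr1 by 1.20 ± 0.19 (edgeR adjusted p = 0.00328) and Ifngr2 by 0.89 ± 0.15 (0.00461). So did the myeloid transcription factors Spi1 (PU.1), by 1.86 ± 0.25 (0.00172), and Irf8, by 1.60 ± 0.28 (0.00576). Prdm1, which encodes the Ciita repressor Blimp-1, rose by 2.28 ± 0.55 (0.0185), and lost its call without MCS 1, MCS 2 or MCD 3 (0.0509 to 0.0779) and under limma-voom (0.0510). Ifng itself had 2 counts in MCS 1, 3 in MCD 3 and 0 in the other 4 libraries, so it was at or below the floor throughout. Irf1, an interferon-induced transcription factor, had 0.013 ± 0.17 (0.964), and 0.66 (limma adjusted p = 0.0273) on the log2(TPM + 1) scale, where the median of all genes was 0.53.

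Endosomal enzymes that cut antigen and invariant chain rose in 6 of 13 cases and fell in 1, with a median log2 fold change of 0.93. Their summed level was 2589 to 2800 CPM on MCS and 4574 to 5810 CPM on MCD. Ctss, the protease best known for the last cuts of the invariant chain, rose by 3.06 ± 0.36 (log2, edgeR adjusted p = 0.00120). Its counts were 626, 496 and 758 on MCS and 5995, 4049 and 14533 on MCD. Napsa, a minor aspartic protease, rose by 3.54 ± 0.42 (0.00114) from 5 to 6 counts per MCS library to 65 to 143 per MCD library. Ifi30, a thiol reductase that opens disulfide bonds of antigens, rose by 1.42 ± 0.14 (0.000480). Ctsd, Lgmn and Ctsb also rose, by 1.52 ± 0.26 (0.00505), 1.39 ± 0.21 (0.00307) and 0.93 ± 0.22 (0.0159), the last losing its call without MCS 1, MCS 2 or MCD 1 (0.0621 to 0.0849). Ctsf, another cysteine protease, fell by 0.80 on the log2 scale (SE 0.15, adjusted p = 0.00643), and was not called with library totals alone (-0.27, 0.133).

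Genes that act after peptide loading were tested in smaller lists. Marchf1, the ligase that sends class II and CD86 to lysosomes, rose by 2.07 ± 0.44 (edgeR adjusted p = 0.0120; 0.0536 without MCS 2), and the related Marchf8 had -0.47 ± 0.15 (0.0542; 0.0350 without MCD 2 and 0.0131 by DESeq2), a sign that turns with library totals alone (0.068). Of 4 costimulatory or coinhibitory ligands tested 2 rose: Icosl by 2.13 ± 0.51 (0.0188; 0.0507 to 0.0750 without MCS 1, MCS 2 or MCD 1) and Cd40 by 1.74 ± 0.52 (0.0406; 0.0760 to 0.141 without any 1 library other than MCD 2). Cd86 had 1.03 ± 0.44 (0.118). Of 5 genes of the T cell side 1 rose, the T cell receptor subunit Cd3e (2.21 ± 0.66, 0.0387). Its counts were 4, 1 and 5 on MCS and 13, 19 and 40 on MCD. Cd3e lost its call without any 1 library other than MCD 2 (0.0712 to 0.138), under limma-voom (0.0693) and with no count filter (0.0559). Other genes of the same receptor were not called: Cd3g had 0.68 (0.522), Cd3d -0.40 (0.757) and Trac -0.025 (0.982). Cd4 had -1.20 ± 0.53 (0.124; 0.0422 without MCD 3). CD74 is also the receptor of the cytokine MIF: Mif had -0.21 ± 0.20 (0.477), while the co-receptors Cd44 (2.32 ± 0.27, 0.00126) and Cxcr4 (3.10 ± 0.51, 0.00442) rose. Ddt, a MIF homologue, fell by 0.90 (SE 0.28, 0.0457), a call that ended without any 1 library other than MCD 2 (0.0867 to 0.158) and with library totals alone (0.177). Over these lists and the other class II genes together, 18 of 52 tested genes rose (34.6%, beside 14.8% of all genes) and 2 fell (3.85%, beside 9.97%). Without MCS 2 the number that rose was 11, in a fit where 947 of all 13108 genes tested rose. The lists too were chosen with earlier results of these data known, so the shares of all genes are a background only.

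Markers of the cells known to carry class II were read beside the members. The 15 monocyte and macrophage markers all rose, with a median log2 fold change of 2.62, and 11 of them exceeded the members' median. Without MCS 1 or MCS 2, 10 of them were called, and limma-voom called 12. Their summed level went from 216 to 275 CPM on MCS to 1183 to 3063 CPM on MCD. Among them Cd68 rose by 2.61 (edgeR adjusted p = 0.000485), Lyz2 by 3.46 (0.00110) and Gpnmb by 7.05 (0.000184). The TPM of H2-Aa, H2-Ab1, H2-Eb1 and Cd74 over that of the markers was 1.20 to 1.79 on MCS and 0.483 to 0.600 on MCD. These ranges did not overlap (log2 difference -1.34, exact two-sided permutation p = 0.1, 0.225 adjusted over the 9 ratios). Gpnmb and Lyz2 held 46.6% to 48.7% of the marker TPM on MCS and 70.8% to 74.8% on MCD, and without them the ratio was 2.26 to 3.498 against 1.92 to 2.08, a log2 difference of -0.42. Gpnmb and Lyz2 were picked after their values were seen.

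The ratio of the same 4 genes to conventional dendritic cell markers overlapped between diets. It was 14.2 to 18.7 on MCS and 13.4 to 16.0 on MCD, with a log2 difference of -0.13 and an exact permutation p of 0.5. This overlap rests on Itgax and Cd24a, which held 16.1% to 23.3% of the marker TPM on MCS and 56.1% to 64.1% on MCD. Without them the ratio was 16.9 to 22.6 on MCS and 34.0 to 44.6 on MCD, with no overlap and a log2 difference of 0.91. Itgax and Cd24a were picked after their values were seen. Both rose strongly, so leaving them out had to shift the ratio upward on MCD relative to MCS. Of 14 such markers tested 6 rose, with a median log2 fold change of 1.44, and their sum went from 25.9 to 33.2 CPM on MCS to 72.4 to 189 CPM on MCD. Itgax (CD11c), which macrophages can also express, rose by 4.71 ± 0.41 (edgeR adjusted p = 0.000571), Cd24a by 3.01 ± 0.38 (0.00165) and Flt3 by 2.69 ± 0.54 (0.00938). The type 1 dendritic cell genes Xcr1 and Clec9a stayed at or below 1.75 CPM in every library and did not pass (1.303 and 1.15, adjusted p = 0.265 and 0.284). They were among 8 markers not called. Zbtb46, also not called, averaged 5.14 CPM on MCS and 5.02 CPM on MCD, with a log2 fold change of -0.026 (edgeR adjusted p = 0.963). Naaa had 0.31 (0.377) and Clec10a 0.32 (0.704). Without MCS 1 the list gave 3 calls and without MCS 2 or MCD 1 it gave 4.

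B cell markers summed to 3.93 to 11.4 CPM on MCS and 8.46 to 20.5 CPM on MCD. Ms4a1 and Pax5 were at or below 1.01 CPM in every library, while Cd22 ran from 1.74 CPM in MCS 2 to 10.97 CPM in MCD 3. Of 4 genes tested 1 rose, Cd22 (1.54 ± 0.40, edgeR adjusted p = 0.0232; 0.0509 to 0.0888 without MCS 1, MCS 2 or MCD 3, and 0.0579 by limma-voom). The ratio of class II and Cd74 to this list was 44.9 to 65.5 on MCS and 89.0 to 96.5 on MCD (log2 difference 0.77, exact p = 0.1). How far this ratio rests on Cd22 was not tested. Plasmacytoid dendritic cell markers gave 0 calls among 2 tested by edgeR, DESeq2 and limma-voom, and 0 at an unadjusted p under 0.05 (Tcf4 had 0.55, adjusted p = 0.400). Of 12 Kupffer cell markers 3 rose and 3 fell, and their summed level was 605 to 757 CPM on MCS and 749 to 1139 CPM on MCD. C1qb and C1qc rose, by 1.34 (0.00560) and 1.14 (0.00837), while Clec4f fell by 1.20 (0.0148), a call that ended without MCS 2 (0.0537) and with library totals alone (0.0929). Cd163 fell by 2.65 (0.0315), a call lost without MCS 1, MCS 2, MCD 1 or MCD 3 (0.0515 to 0.124) and with no count filter (0.0677). Of 10 sinusoidal endothelial markers (median -0.36; Stab2 had -0.46, adjusted p = 0.622) these tools called 0, and 0 had an unadjusted edgeR p under 0.05. Of the 7 hepatocyte markers 1 fell by edgeR and 5 by DESeq2, and 5 were lower at an unadjusted edgeR p under 0.05. The gene called by edgeR was Serpina1b, which fell by 1.15 (0.0371), a call lost without any 1 library other than MCD 2 (0.0541 to 0.149). The part of each cell type in the members' change was not tested.

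The genes whose profiles over the 6 libraries lay nearest to the members' mean profile were searched among 8989 tested genes whose mean reached 5 CPM. The members, genes with predicted-gene, Riken or accession-style names, and rows without a symbol were left out of these candidates. Distance was the root mean square difference in centred log2 CPM, which uses the diet difference too, so the diet change of these genes is a description. The nearest were Arhgap27 (0.0933), Ncf1 (0.112), Wipf1 (0.120), Ppp1r18 (0.123), Marcks (0.125), Vsir (0.129), Lpcat2 (0.137) and Abcg1 (0.140). Ncf1 encodes a subunit of the phagocyte NADPH oxidase, Vsir the immune checkpoint VISTA, and Abcg1 a cholesterol exporter. Their log2 fold changes ran from 1.47 (Lpcat2) to 1.86 (Vsir). The members' own distances were 0.0842 (H2-Ab1), 0.0856 (H2-Eb1), 0.0891 (H2-Aa), 0.123 (Cd74), 0.172 (H2-DMa), 0.242 (H2-DMb1) and 0.316 (Ciita), each to a mean that includes it. The displaying chains, which are part of this mean and alike in profile, lay closest to it. Ciita, the scarcest member, lay farthest, and the part of counting error in its distance was not tested.

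**Figure D4:**
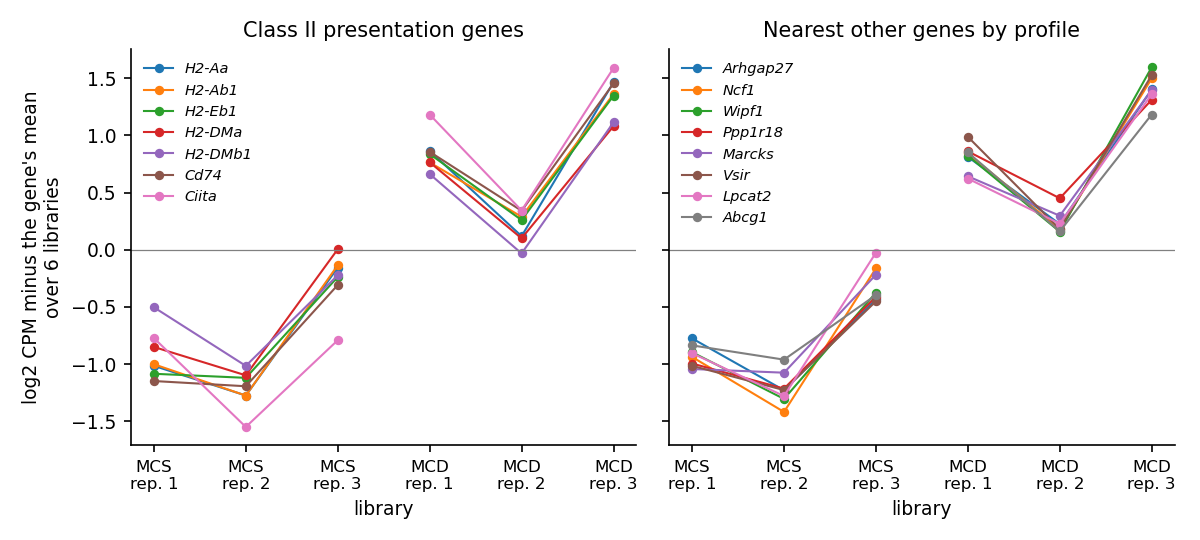
Centred log2 CPM of the 7 members and of the 8 nearest genes in the 6 libraries. All 15 genes are lowest in MCS 2 and highest in MCD 3.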

How the data were processed

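Estimated counts and TPM per gene were made by the authors and deposited in 1 table. Per the submitters' processing notes, fastp 0.18.0, HISAT2 2.1.0, Bowtie2 2.2.8, StringTie 1.3.1, RSEM and GRCm39 were used, with no roles given. Trizol extraction and capture of mRNA on beads are stated per the labels. The strand setting of the counting is not given there or in the notes. The same deposited table holds the authors' log2 fold changes, p-values and false discovery rates. The 30 rows without a symbol (0.000104% of counts) stayed out of the named genes.

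The deposited counts, whole numbers treated as rounded estimates, were tested with edgeR 4.0.16 (TMM, filterByExpr with a minimum count of 10, robust quasi-likelihood test, diet as the only term), and adjusted by Benjamini-Hochberg over 12599 genes. DESeq2 1.42.0, limma 3.58.1 (voom, and log2(TPM + 1) or log2(TPM + 0.1)), other scalings and filters, a replicate block and libraries left out in turn were alternatives. Ratios of TPM were compared by exact two-sided permutation. Scripts ran in R 4.3.3 and were tested on simulated data. The floor of 3 counts covers counting error only. Promoter windows came from RefSeq (GRCm38.p6), and no coordinates were carried to GRCm39.

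The members and gene lists were chosen with earlier results of these data known. Named were the members, all other class II genes and promoter factors, the 8 nearest genes, and from each other list the 2 called genes with the smallest p in each direction or, with none called, the tested gene with the highest mean CPM. The remaining genes were named after their values were seen, and some listed genes are counted but not reported by name here.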

Additional observations from a re-analysis of the deposited data

How the results depend on the processing

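Under other scalings, genes higher on MCD numbered 5095 with library totals alone, 5401 on log2(TPM + 1) and 5692 on log2(TPM + 0.1), against 1861, and lower ones 348, 268 and 282, against 1256. So 93.6% to 95.3% of calls were then higher, against 59.7%. All 7 members were called under these scalings and under DESeq2 and both other filters, and 6 under limma-voom (H2-DMb1 1.15, its sum with H2-DMb2 1.15). In the pathway lists, higher calls were 32, 31 and 33 under those 3 scalings, and lower calls 0 under each (0 at an unadjusted p under 0.05), 4 by DESeq2 and 5 without both replicates 3. The ratio to dendritic cell markers differed by -0.31 with counts in place of TPM, and that to macrophage markers by -0.42 without Gpnmb and Lyz2. Without Itgax and Cd24a the former differed by 0.91, with no overlap.

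With 1 library left out, genes higher on MCD numbered 946 to 2363, lower ones 400 to 2072, members called 3 to 7, pathway genes higher 11 to 25 and lower 1 to 4. Log2 fold changes were then 1.27 to 2.05 for H2-Aa, 1.26 to 1.997 for H2-Ab1, 1.04 to 1.68 for H2-DMa, 0.90 to 1.42 for H2-DMb1, 1.29 to 2.01 for the sum of H2-Aa, H2-Ab1 and H2-Eb1, and 0.88 to 1.46 for H2-DMb1 with H2-DMb2. Without MCS replicates 1 and 2, an alternative chosen after seeing the data, as were the removal of both replicates 3 and of the markers named above, edgeR called 46 genes higher and 28 lower, 0 members (3 at an unadjusted p under 0.05) and 0 pathway genes in either direction (14 higher and 2 lower unadjusted). The log2 values were then 1.06 (H2-Aa), 0.99 (H2-Ab1), 1.10 (H2-Eb1), 0.69 (H2-DMa), 0.87 (H2-DMb1), 1.25 (Cd74), 1.95 (Ciita), 1.05 and 0.76 (the sums). The cause of these shifts was not tested, other than that fewer libraries enter.

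Signs changed for uncalled genes. With library totals alone, log2(TPM + 1) and log2(TPM + 0.1), in that order, the values were 0.51, 0.60 and 0.64 for Nfyb, 0.46, 0.55 and 0.58 for Nfyc, 0.051, 0.060 and 0.063 for Crem, 0.14, 0.38 and 0.41 for Stab2, 0.31, 0.45 and 0.45 for Mif, and 0.068, 0.16 and 0.17 for Marchf8. Rfxank had 0.042 and 0.049 on the TPM scales. Nfyb had 0.022 under the stricter filter, Rfxap -0.016 by limma-voom, Atf1 -0.0036 with TMMwsp factors and -0.0069 by DESeq2, and Irf1 -0.0012 by DESeq2. With 1 library left out, the range crossed 0 for H2-Ob (-0.042 to 0.78), Rfxap (-0.087 to 0.27), Nfyb (-0.14 to 0.096), Nfyc (-0.19 to 0.056), Atf1 (-0.057 to 0.038), Tcf4 (-0.14 to 0.87), Stab2 (-1.06 to 0.35) and Irf1 (-0.092 to 0.20).

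Replicate numbers are shared between diets, but nothing in the labels pairs the samples. The deviations of same-numbered libraries correlated at 0.063, 0.147 and 0.246, and those of differently numbered libraries at -0.223 to 0.132. With the replicate block all 7 members were called (median log2 fold change 1.63), with 19 pathway genes higher and 3 lower. The members' edgeR adjusted p was then lower, from 0.000439 (H2-Ab1) to 0.00423 (H2-DMa). Rfxank became called lower (-0.62, adjusted p = 0.0482), and 3 sinusoidal endothelial markers were called lower, against 0.

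Depth limits H2-Oa, H2-Ob, H2-DMb2, H2-Eb2 and Ifng, which have few counts per library. With 3 libraries per diet the smallest exact p of a ratio is 0.1.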
